A study of Mus musculus with 6 samples.

Results

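The amino acid transporters studied here are the solute carriers of the SLC1, SLC3, SLC6, SLC7, SLC36, SLC38 and SLC43 families. They were chosen as all probe sets, the groups of short oligonucleotides that measure a transcript on the array, whose annotation names exactly 1 gene with a symbol of these families, without Slc7a11. The rule gave 62 genes with 123 probe sets, of 18193 genes with 34945 probe sets naming 1 gene. Symbols of 3 of the 62 genes, Slc36a1os, Slc6a19os and Slc7a6os, name genes on the opposite strand of a carrier gene and not carriers, which leaves 59 transporter genes with 119 probe sets. The samples were 6 one-colour arrays of 3T3-L1, a murine line of fibroblast origin widely used as a model of fat cell formation. Cultures given resveratrol, a plant polyphenol, provided 3 arrays, and control cultures provided the other 3. The labels do not say whether the controls received vehicle. Dose, duration and state of differentiation were not given in the sources used here, both groups are of 1 cell line, and no label says that the cultures were grown on separate occasions. Nor do the labels say whether each array came from a culture of its own. The p-values therefore measure the spread between these arrays, and the number of arrays limits the precision.

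Amino acid transporters move amino acids across the plasma membrane or out of the lysosome. Carriers coupled to sodium or protons, such as those of the SLC1, SLC6, SLC36 and SLC38 families, can build up gradients. The light chains of the SLC7 family pair with the heavy chains Slc3a2 or Slc3a1 and exchange one amino acid for another, while the SLC43 carriers let neutral amino acids pass down their gradient. Cells tune these genes to amino acid supply, in part through the transcription factor ATF4, and the lysosomal members report amino acids to the growth kinase mTORC1. In fat cells, Slc36a2 is known as a surface marker of the brown type and Slc7a10 of the white type.

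Resveratrol-treated cells had higher signals of Slc7a6, Slc7a1, Slc1a3, Slc43a2, Slc43a3 and Slc6a8 and a lower signal of Slc36a2. Of the 72 member probe sets bright enough to be tested, 9 rose, 1 fell and 62 did not pass an adjusted p of 0.05 (limma, Benjamini-Hochberg adjustment over all 27022 probe sets tested). The members called were 13.9% of those tested, against 8.17% of all probe sets. By direction, 12.5% of the members rose, against 3.95% of all probe sets, and 1.39% fell, against 4.22%. Each gene was also represented by the tested probe set of highest mean. On that count 5 of 36 genes rose and 1 fell, which is 16.7% against 10.5% of all 12630 genes. Slc6a8 did not pass on that count, as its probe set of highest mean had a limma adjusted p of 0.119. The rises were small, between 0.36 and 0.71 on the log2 scale, and the fall of Slc36a2 was 0.87.

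The arrays of the groups did not overlap for 28 of the 72 members, or 38.9%, against 26.4% of all probe sets tested. Of these 28 members, 23 were higher and 5 lower with resveratrol, and 18 of the 28 did not pass the test. The median log2 difference of the members was 0.14 and that of all probe sets 0.01. By gene, the groups lay apart for 15 of 36 members (41.7%), against 30.2% of all genes. These shares and medians describe the families, which were chosen with earlier results of these data known, and no test of the list was made. In bulk RNA, fewer cells of a type and less RNA per cell cannot be told apart.

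**Figure D1:**
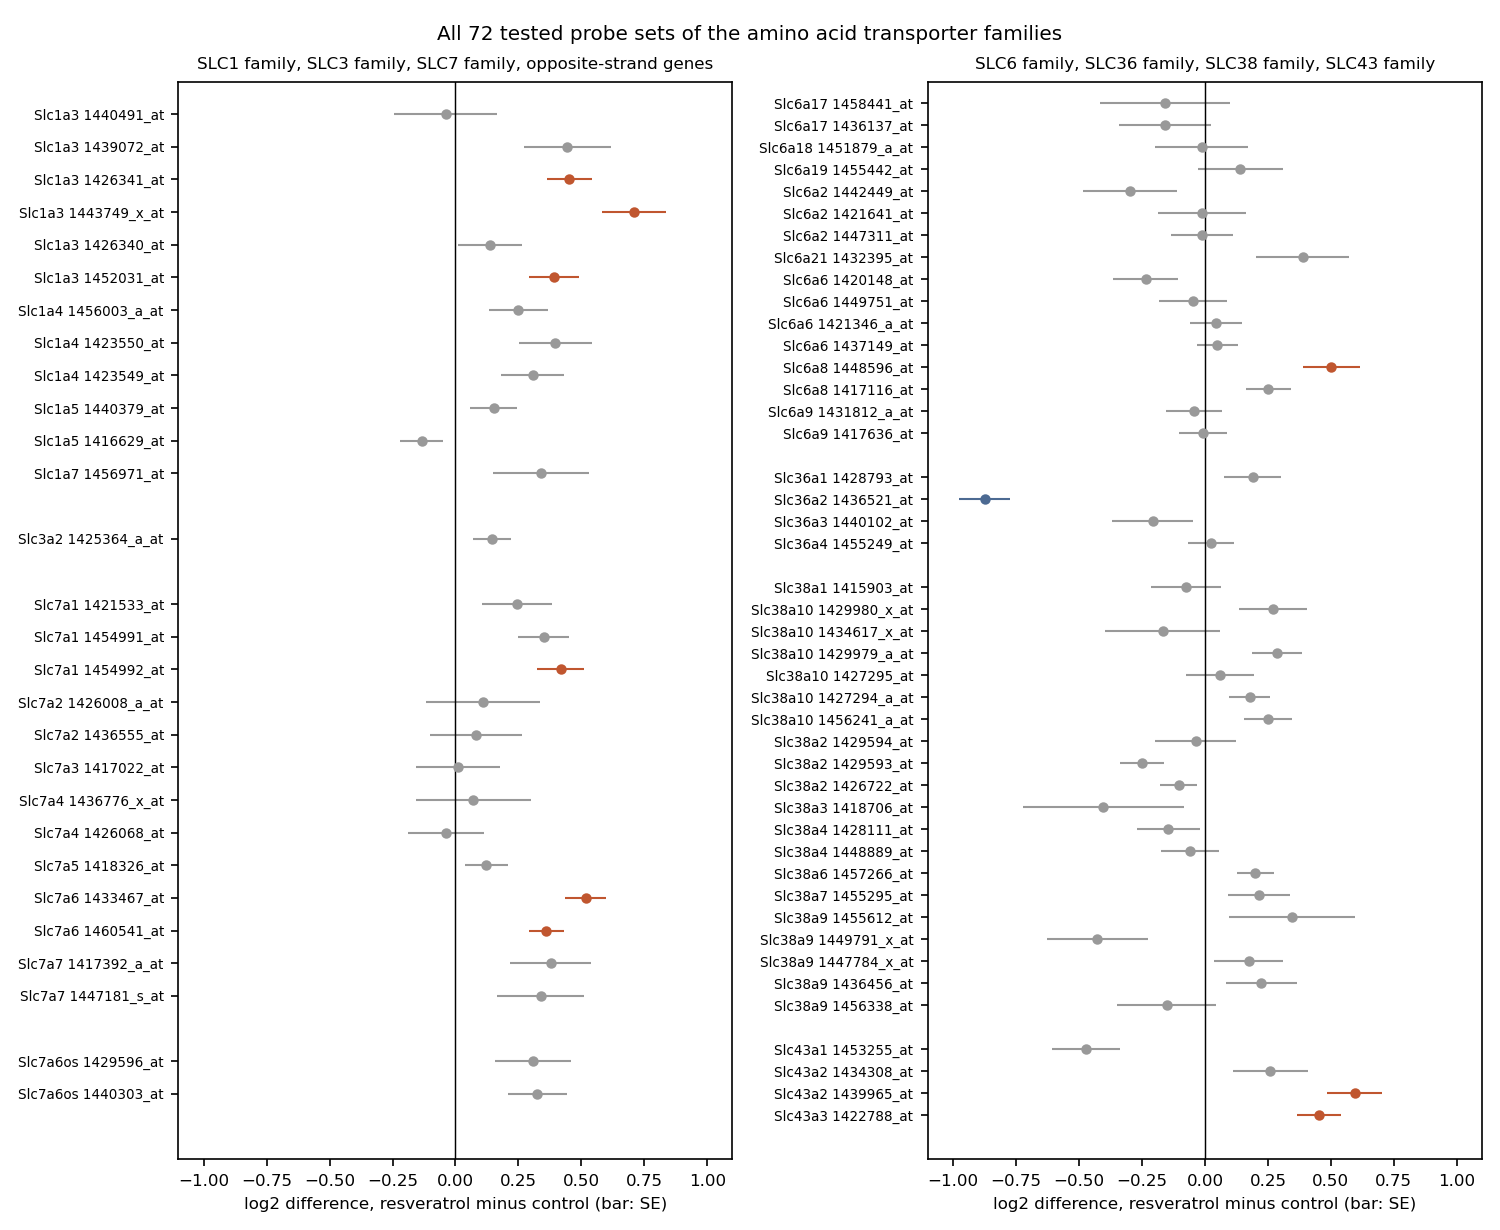
Log2 difference, resveratrol minus control, of the 72 tested probe sets by family, with bars of 1 SE; orange points rose, blue points fell and grey points did not pass. In the SLC1 and SLC7 families 10 of 12 and 12 of 13 points lie above 0, while the SLC38 points lie 10 above and 10 below. Of all probe sets tested, 51.9% lie above 0. The 12 SLC1 points come from 4 genes and the 13 SLC7 points from 7 genes, and 9 and 10 of them did not pass.

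Upstream sequences of 3 rising genes are shown, with and without a motif match in the bases printed. Whether these genes share regulation was not tested. RefSeq promoters (build GRCm38.p6) were at hand for 45 of the 62 members and for Slc7a6, Slc43a2, Slc7a1 and Slc1a3 of the 7 genes with a called probe set. Slc36a2, Slc43a3 and Slc6a8 were not matched. The 250 bases before 1 start site are given 5′ to 3′ for Slc7a6, at chr8:106168671-106168920 on the plus strand, for Slc43a2, at chr11:75531862-75532111 on the plus strand, and for Slc1a3, at chr15:8710808-8711057 on the minus strand. Capitals mark the core of the hypoxia response element, ACGTG or GCGTG, read on either strand.
Slc7a6: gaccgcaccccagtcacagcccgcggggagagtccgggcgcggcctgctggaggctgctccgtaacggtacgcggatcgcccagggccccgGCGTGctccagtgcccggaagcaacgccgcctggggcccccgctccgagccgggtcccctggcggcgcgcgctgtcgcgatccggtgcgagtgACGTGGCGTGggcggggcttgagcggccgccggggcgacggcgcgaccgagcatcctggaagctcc
Slc43a2: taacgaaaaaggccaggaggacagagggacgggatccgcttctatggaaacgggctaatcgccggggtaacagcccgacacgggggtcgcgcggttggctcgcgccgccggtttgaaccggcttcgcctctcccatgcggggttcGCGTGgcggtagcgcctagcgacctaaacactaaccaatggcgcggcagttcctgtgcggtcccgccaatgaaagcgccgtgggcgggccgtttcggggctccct
Slc1a3: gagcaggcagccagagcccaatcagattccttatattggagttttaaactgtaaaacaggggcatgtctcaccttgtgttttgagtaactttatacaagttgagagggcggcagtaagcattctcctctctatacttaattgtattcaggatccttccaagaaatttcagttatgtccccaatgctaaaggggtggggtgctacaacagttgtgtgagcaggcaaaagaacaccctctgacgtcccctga
Within these 250 bases the Slc7a6 stretch holds 3 such cores, the Slc43a2 stretch 1 and the Slc1a3 stretch 0. Of the 7 stretches of these 4 genes, 3 hold a core, and 2 of the 3 are overlapping stretches of Slc7a6. Both Slc7a1 stretches and the other Slc43a2 stretch hold 0. Their G and C content ran from 44.8% for Slc1a3 to 77.2% for Slc7a6, on both sides of the median of 52.4% over all promoters.

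Among the 7 promoter windows of the called genes, each of 250 bases before and 50 after a start, 5 hold this core (71.4%). Slc1a3 and Slc7a1 have a core only in these wider windows. Each of the called genes with a promoter thus has a window with a core, and the contrast between the printed stretches depends on their length. The same core is in 17 of 28 windows of members tested and not called (60.7%) and in 43.8% of all 32851 windows. The E-box CACGTG, which holds an ACGTG core within it, is in 0 of the 7 windows and in 7.15% of all. The C/EBP-ATF response element, through which ATF4 acts on amino acid transporters, was searched as TGATGNAA on either strand. It is in 0 of the 7 windows, in 4 of 28 windows of members not called and in 3.97% of all. Those 4 windows belong to Slc1a4, Slc6a21 and Slc7a7, all 3 of which were tested and did not pass. Of the matches, 2 of Slc7a7 and 1 of Slc6a21 are printed, with the element in capitals as read on the strand of the gene. Those printed for Slc7a7 lie at chr14:54418066-54418097 and chr14:54417926-54417952 on the minus strand, and that of Slc6a21 at chr7:45282833-45282864 on the plus strand.
Slc7a7, first site: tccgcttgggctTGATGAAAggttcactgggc
Slc7a7, second site: tagaagcTGATGCAAcagcttccccga
Slc6a21: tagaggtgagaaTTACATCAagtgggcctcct
A match of letters is a description and not evidence that a factor binds there.

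Among carriers of cationic amino acids, Slc7a6 and Slc7a1 rose, while Slc7a7, Slc7a2 and Slc7a3 did not pass. Slc7a6, the light chain y+LAT2 that exports arginine and lysine in exchange for neutral amino acids, passed with both of its probe sets. The brighter, 1460541_at, read 548.6, 552.1 and 530.9 in control replicates 1 to 3 and 711.0, 679.0 and 719.2 in the resveratrol replicates. All 3 treated arrays lay above all controls, with means of 544 ± 11.4 and 703 ± 21.2 (SD, n = 3) and a log2 difference of 0.36 ± 0.07 (SE, limma adjusted p = 0.00937). The other, 1433467_at, read 235.3, 259.0 and 245.1 in control and 371.0, 370.9 and 337.5 in treated cells. That is a log2 difference of 0.52 ± 0.08 (limma adjusted p = 0.00329), or 1.43-fold. Both Slc7a6 probe sets kept their call with each array left out in turn.

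Slc7a1 encodes CAT-1, the main arginine and lysine importer of most cells. Its probe set 1454992_at read 736.5, 706.7 and 652.8 in control and 921.5, 838.6 and 1067.4 in treated cells. The groups lay apart, the treated replicates spread more widely than the controls, and the log2 difference was 0.42 ± 0.09 (limma adjusted p = 0.0204). The call was lost without control replicate 2 (adjusted p = 0.0646), control replicate 3 (0.0575), resveratrol replicate 1 (0.0605) or resveratrol replicate 3 (0.0634). The 2 other Slc7a1 probe sets had differences of 0.35 and 0.24 (limma adjusted p = 0.0565 and 0.345), also without overlap between the groups.

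Slc7a7, the light chain y+LAT1, was dim, at 21.7, 18.4 and 20.4 in control and 31.6, 30.5 and 30.8 in treated cells for 1417392_a_at. These groups lay apart, and the log2 difference of 0.38 ± 0.16 did not pass (limma adjusted p = 0.202). The arginine carrier genes Slc7a2 and Slc7a3 were dim too, at or below 46.1 on every array, with differences of 0.08 and 0.01 that did not pass (limma adjusted p = 0.859 and 0.986). Slc7a6os, which lies on the strand opposite Slc7a6, had 0.33 and 0.31 at its probe sets (limma adjusted p = 0.127 and 0.267).

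**Figure D2:**
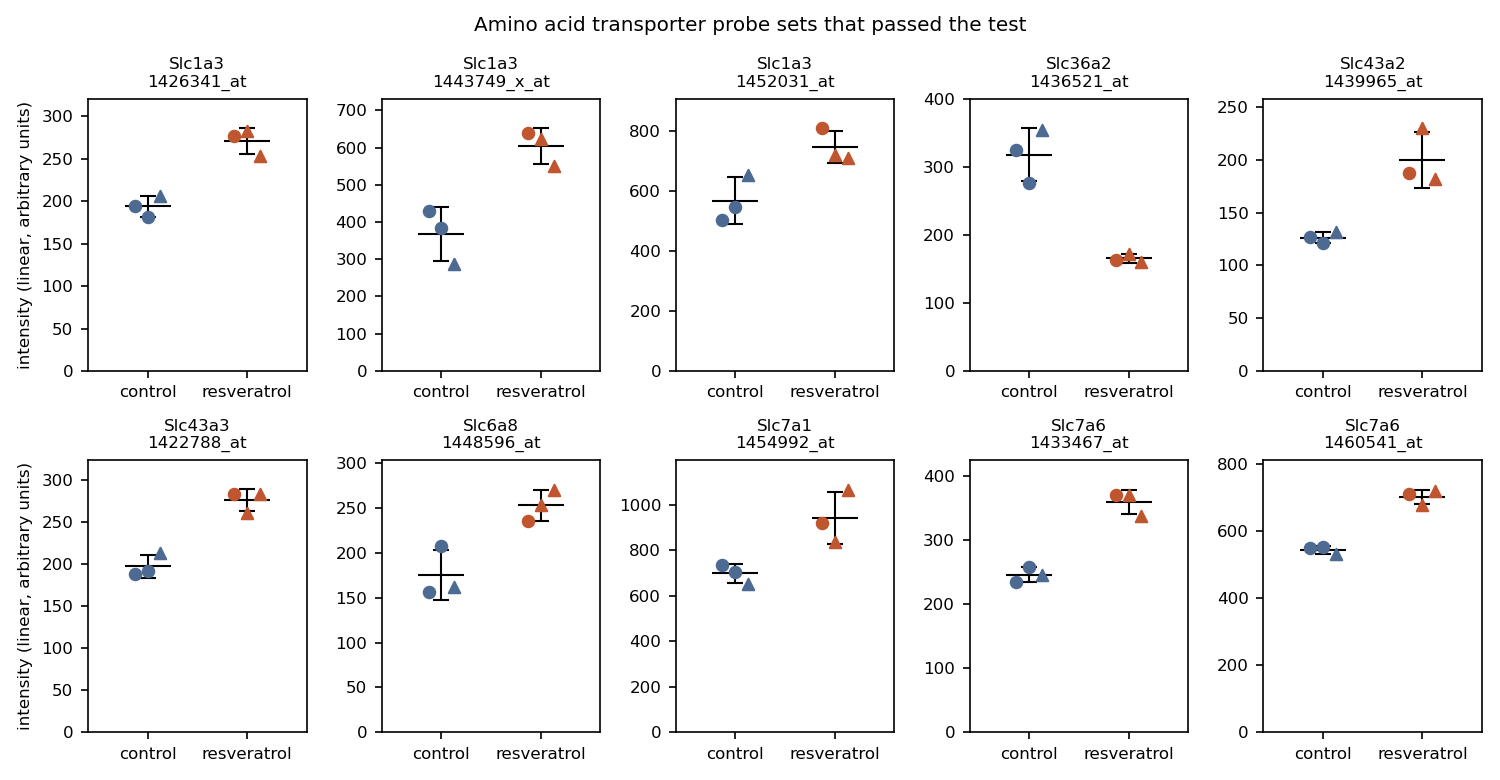
Intensity of the 10 probe sets that passed, per array, on a linear axis from 0; bars give the mean and SD of 3 arrays, circles are the arrays with brighter hybridisation spikes and triangles those with dimmer spikes. In every panel the 3 treated arrays lie on one side of the 3 controls, below them for Slc36a2 and above them for the others.

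The large neutral amino acid exchanger did not pass. Slc7a5, the light chain LAT1 that brings in leucine, read 630.3, 531.1 and 525.5 in control and 586.1, 620.4 and 628.1 in treated cells. The groups overlapped, and the log2 difference of 0.12 ± 0.09 did not pass (limma adjusted p = 0.468). Slc3a2, the shared heavy chain, read 1686.6, 1725.8 and 1563.8 in control and 1881.8, 1769.4 and 1850.4 in treated cells. The treated arrays lay just above the controls, at 0.14 ± 0.07, which did not pass (limma adjusted p = 0.295). Slc7a8, the light chain LAT2, Slc7a9 and Slc3a1, a heavy chain known from kidney, read at most 28.4 on any array and were not tested.

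Of the 3 SLC43 genes, Slc43a2 and Slc43a3 rose and Slc43a1 did not pass. Slc43a2, the leucine and phenylalanine carrier LAT4, read 126.8, 121.2 and 131.4 in control and 187.9, 230.3 and 181.9 in treated cells at 1439965_at. This was the largest rise among the genes taken by their brightest probe set, 0.59 ± 0.11 on the log2 scale or 1.51-fold (limma adjusted p = 0.00703), and it kept its call with each array left out. A second Slc43a2 probe set had 0.26 (limma adjusted p = 0.356). Slc43a3, a family member known as a nucleobase carrier, read 188.0, 191.6 and 213.5 in control and 283.8, 261.4 and 284.1 in treated cells. All treated arrays lay above the controls, with a difference of 0.45 ± 0.09 (limma adjusted p = 0.0098).

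Slc43a1, the related carrier LAT3, read 142.4, 162.2 and 146.4 in control and 112.3, 121.6 and 81.2 in treated cells. The groups did not overlap, and the difference of -0.47 ± 0.14 just missed the threshold (limma adjusted p = 0.0581). It passed when only the brightest 40% of probe sets were tested (adjusted p = 0.0431) or when the probe sets of each gene were averaged (0.0373). It did not pass under the other alternatives, among them the spike block (0.113) and each array left out in turn (0.058 to 0.183).

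Slc1a3, which encodes the glutamate and aspartate importer GLAST, rose at 3 of its 6 probe sets. Probe set 1426341_at read 194.4, 181.4 and 206.2 in control and 277.2, 282.3 and 253.7 in treated cells, a log2 difference of 0.45 ± 0.09 (limma adjusted p = 0.0106). The brightest, 1452031_at, read 503.3, 547.7 and 653.2 in control and 809.8, 720.2 and 711.1 in treated cells, with 0.39 ± 0.10 (limma adjusted p = 0.0348). A probe set that may bind related transcripts, 1443749_x_at, had the largest difference, 0.71 ± 0.13 (limma adjusted p = 0.00619). In these 3 probe sets the groups lay apart.

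The other 3 Slc1a3 probe sets had 0.44, 0.14 and -0.04 (limma adjusted p = 0.155, 0.611 and 0.943), so the probe sets disagree in size. The call of 1452031_at held with control replicate 3 left out and was lost without any other array, at adjusted p between 0.0578 (resveratrol replicate 3) and 0.135 (resveratrol replicate 1). The call of 1426341_at was lost without control replicate 2 (0.0511) or resveratrol replicate 2 (0.0526).

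Other glutamate carriers, Slc1a1, Slc1a2 and Slc1a6, were read at or below 29.4 on every array and not tested. Among the neutral carriers of the family, Slc1a4 had 0.31, 0.40 and 0.25 at its 3 probe sets, none of which passed (lowest limma adjusted p = 0.132). Slc1a7, a glutamate carrier known from retina, had 0.34 (limma adjusted p = 0.341). Slc1a5, the glutamine importer ASCT2, read 2314.0, 2175.7 and 2043.0 in control and 2101.1, 2043.3 and 1810.3 in treated cells, with -0.13 ± 0.09 (limma adjusted p = 0.414). The groups overlapped, and the dimmer Slc1a5 probe set had the opposite sign, 0.15 (limma adjusted p = 0.406).

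Slc36a2 was the member that fell. It encodes PAT2, a proton-coupled carrier of glycine, alanine and proline that is known in fat as a surface protein. Its probe set read 324.6, 276.3 and 354.5 in control and 163.6, 172.7 and 160.8 in treated cells. The lowest control array lay well above the highest treated array, and the means were 318 ± 39.5 and 166 ± 6.22 (SD, n = 3). The log2 difference of -0.87 ± 0.10 was 1.83-fold lower (limma adjusted p = 0.000446), the lowest adjusted p among the members. The related lysosomal carriers did not pass, at 0.19 for Slc36a1 and 0.02 for Slc36a4 (limma adjusted p = 0.379 and 0.918), nor did Slc36a3 at -0.21 (0.518).

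Of the adipocyte markers, 4 of 6 were matched to a probe set naming exactly 1 gene, and none of the 4 was at 0. Plin1 and Cfd were not matched, which does not show that the array lacks them. Their summed intensity ranged from 24934 to 40217 in control and from 24595 to 31514 in treated cells. Cidec, a lipid droplet protein, was the marker that passed, at -0.57 ± 0.11 (limma adjusted p = 0.0078), while Fabp4 (11745 and 9926), Adipoq (8620 and 6840) and Lpl (8703 and 7500, means of control and treated cells) did not pass. Fat cell markers were thus bright in both groups, and the labels name only the line. The part of fat cell content in the Slc36a2 difference was not tested. Slc7a10, the other fat cell surface carrier named above, read at most 32.9 and was not tested.

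In the SLC6 family, 1 of 16 tested probe sets passed and rose, which is 6.25% against 8.17% of all probe sets. Slc6a8, the creatine carrier, read 156.1, 207.0 and 161.5 in control and 235.6, 252.8 and 270.2 in treated cells at 1448596_at. The groups lay apart, with one control array closer to the treated ones, and the difference was 0.50 ± 0.11 (limma adjusted p = 0.0201). Its call was lost without control replicate 1 (adjusted p = 0.0534), control replicate 3 (0.0613), resveratrol replicate 2 (0.0693) or resveratrol replicate 3 (0.0676). The other Slc6a8 probe set read 207.8, 217.1 and 236.4 in control and 281.6, 247.8 and 266.6 in treated cells, again without overlap, at 0.25 ± 0.09 (limma adjusted p = 0.119). It is the brighter of the pair and did not pass, so Slc6a8 is not among the genes that rose by their brightest probe set.

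Slc6a6, the taurine carrier, was bright, at 1670.9, 1639.5 and 1532.9 in control and 1780.3, 1522.5 and 1717.2 in treated cells. The groups overlapped, with a difference of 0.05 ± 0.08 (limma adjusted p = 0.798), and its next brightest probe set had 0.04 (0.868). Slc6a9, the glycine carrier GLYT1, had -0.01 ± 0.09 (limma adjusted p = 0.976), and the brightest probe set of the noradrenaline carrier Slc6a2 also -0.01 (0.974). Slc6a21 had 0.39 (limma adjusted p = 0.256). The GABA and betaine carriers Slc6a13 and Slc6a12 and the serotonin carrier Slc6a4 read at most 12.9, 4.9 and 3.2 and were not tested.

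The sodium-coupled neutral carriers of the SLC38 family gave 0 calls among 20 tested probe sets, against 8.17% of all probe sets, and their median difference was 0.01. At an unadjusted limma p under 0.05 there were 4 of the 20, against 21.7% of all probe sets. Slc38a2, the glutamine and alanine carrier SNAT2 that is induced when amino acids run short, read 2234.2, 2114.2 and 2292.7 in control and 2036.6, 2072.3 and 2060.6 in treated cells. The treated arrays all lay below the controls, yet the difference of -0.10 ± 0.07 did not pass (limma adjusted p = 0.461). A dimmer Slc38a2 probe set, 1429593_at, had -0.25 ± 0.09, also without overlap (limma adjusted p = 0.115). It passed without control replicate 1 (limma adjusted p = 0.0399). Slc38a10 had its brightest probe set at 0.25 ± 0.10 (limma adjusted p = 0.151), and its other 5 tested probe sets ranged from -0.17 to 0.29. Slc38a9, the lysosomal arginine sensor, had 5 tested probe sets of both signs, from -0.43 to 0.35, and none passed (lowest limma adjusted p = 0.248). Slc38a3, the glutamine carrier SNAT3, had a wide error at -0.40 ± 0.32 (limma adjusted p = 0.533). Slc38a1, Slc38a4 and Slc38a7 had -0.08, -0.06 and 0.22 at their brightest probe sets, none past the threshold (limma adjusted p = 0.822, 0.83 and 0.347), and Slc38a5 read at most 14.1 and was not tested.

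None of the remaining tested members passed. Slc38a6 had 0.20 ± 0.07 without overlap between the groups (limma adjusted p = 0.135), and Slc6a17 had -0.16 at both tested probe sets. Slc6a18, Slc6a19 and Slc7a4, known from kidney, gut or brain, had -0.01, 0.14 and -0.04 at their brightest probe sets, and none passed. In all, 26 member genes had no probe set bright enough to be tested. Besides those named above they were Slc6a3, Slc6a5, Slc6a7, Slc6a11, Slc6a14, Slc6a15, Slc6a16, Slc6a20a and Slc6a20b, then Slc7a12, Slc7a13, Slc7a14 and Slc7a15, and the opposite-strand Slc36a1os and Slc6a19os. The highest reading among all 26 was 34.3, for Slc7a13.

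Array signal differed within each group. Control replicate 1 was deposited with more decimals than the other 5 arrays and stood apart on the second principal component, at 29.27 against -14.04 to 8.69. Without it, Slc6a8 and Slc1a3 1452031_at were the called members that lost their call. Slc38a2 1429593_at then passed as lower, at -0.33 (limma adjusted p = 0.0399). Hybridisation spikes, control transcripts added in fixed amounts, were brighter on control replicates 1 and 2 and resveratrol replicate 1, at a mean log2 signal of 10.74 to 11.03, than on the other 3 arrays, at 10.01 to 10.29. The groups of the 10 called probe sets did not overlap, so their direction within both sets of arrays was fixed in advance. The differences within each set, of 1 array against 2, show size only. Slc36a2 had -0.81 within the brighter and -1.02 within the dimmer arrays. For Slc7a6 the values were 0.36 and 0.39 (1460541_at) and 0.56 and 0.50 (1433467_at), for Slc7a1 0.35 and 0.52, and for Slc6a8 0.36 and 0.64. For Slc43a2 they were 0.54 and 0.58, and for Slc43a3 0.54 and 0.33. The Slc1a3 values were 0.52 and 0.35 (1426341_at), 0.64 and 0.98 (1443749_x_at) and 0.61 and 0.13 (1452031_at). With the spike side as a block, 1452031_at was the called member that no longer passed (limma adjusted p = 0.0707). With no intensity trend in the fit, 6 of the 10 were lost, namely the 3 Slc1a3 probe sets (0.0521, 0.0535 and 0.131), Slc6a8 (0.0795), Slc7a1 (0.1) and Slc7a6 1460541_at (0.0694).

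**Figure D3:**
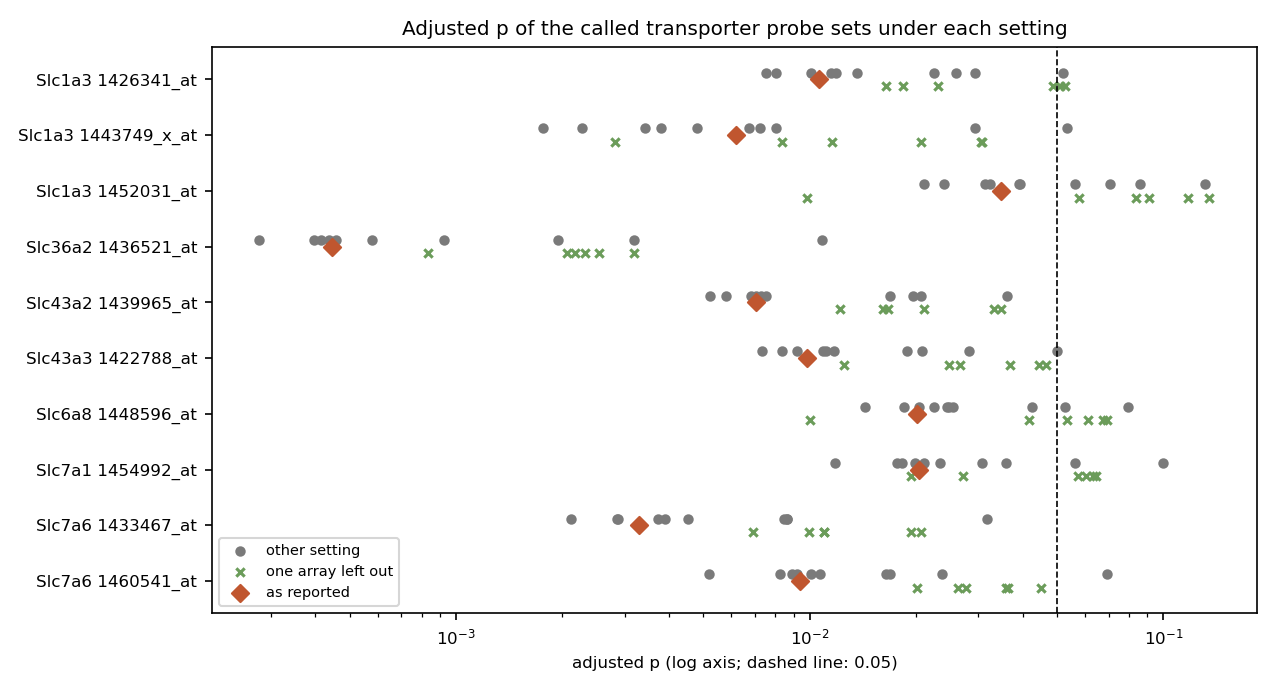
Adjusted p (log axis, dashed line at 0.05) of the 10 called probe sets as reported (diamonds), with one array left out (crosses) and under the other alternatives (grey points). All points of Slc36a2, Slc43a2, Slc43a3 and the Slc7a6 probe set 1433467_at lie below 0.05, and 9 of the 16 alternatives for Slc1a3 1452031_at lie above it.

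ATF4 is the transcription factor that raises many amino acid transporters when amino acids are scarce. Its list held Atf4 itself, the kinases Eif2ak3 and Eif2ak4 and genes of the ATF4 response. Of 13 genes of this list tested, 0 rose and 5 fell, with a median of -0.17. Of all genes, 5.32% rose and 5.21% fell. The list was chosen with earlier results of these data known, so the counts describe it and are no test of it. Trib3, a pseudokinase induced by ATF4, read 571.9, 466.4 and 498.5 in control and 283.0, 261.8 and 255.8 in treated cells. The groups lay far apart, at -0.90 ± 0.09 (limma adjusted p = 0.000181), although a second Trib3 probe set had -0.32 and did not pass (0.256). Ddit3, the stress factor CHOP, fell from 618 ± 73.7 to 426 ± 24.7 (SD, n = 3), a log2 difference of -0.51 ± 0.09 (limma adjusted p = 0.00749), and its second probe set had -0.25 (0.324). Cebpg, a partner of ATF4, fell by 0.34 (limma adjusted p = 0.0105), although its further probe sets had 0.14 and -0.02.

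Cebpb and Atf5 also passed, at -0.29 and -0.35 (limma adjusted p = 0.0371 and 0.0483). With no intensity trend in the fit, Trib3 kept its call and the other 4 genes lost theirs (adjusted p = 0.0588 to 0.147). Cebpb and Atf5 kept the call without control replicate 3 and lost it without any other array, at adjusted p of 0.069 to 0.145 for Cebpb and 0.0943 to 0.173 for Atf5. Atf4 itself had -0.04, and Asns, its target for asparagine synthesis, had -0.05 (limma adjusted p = 0.84 and 0.796). Slc7a11, the cystine carrier, had -0.22 (limma adjusted p = 0.516).

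**Figure D4:**
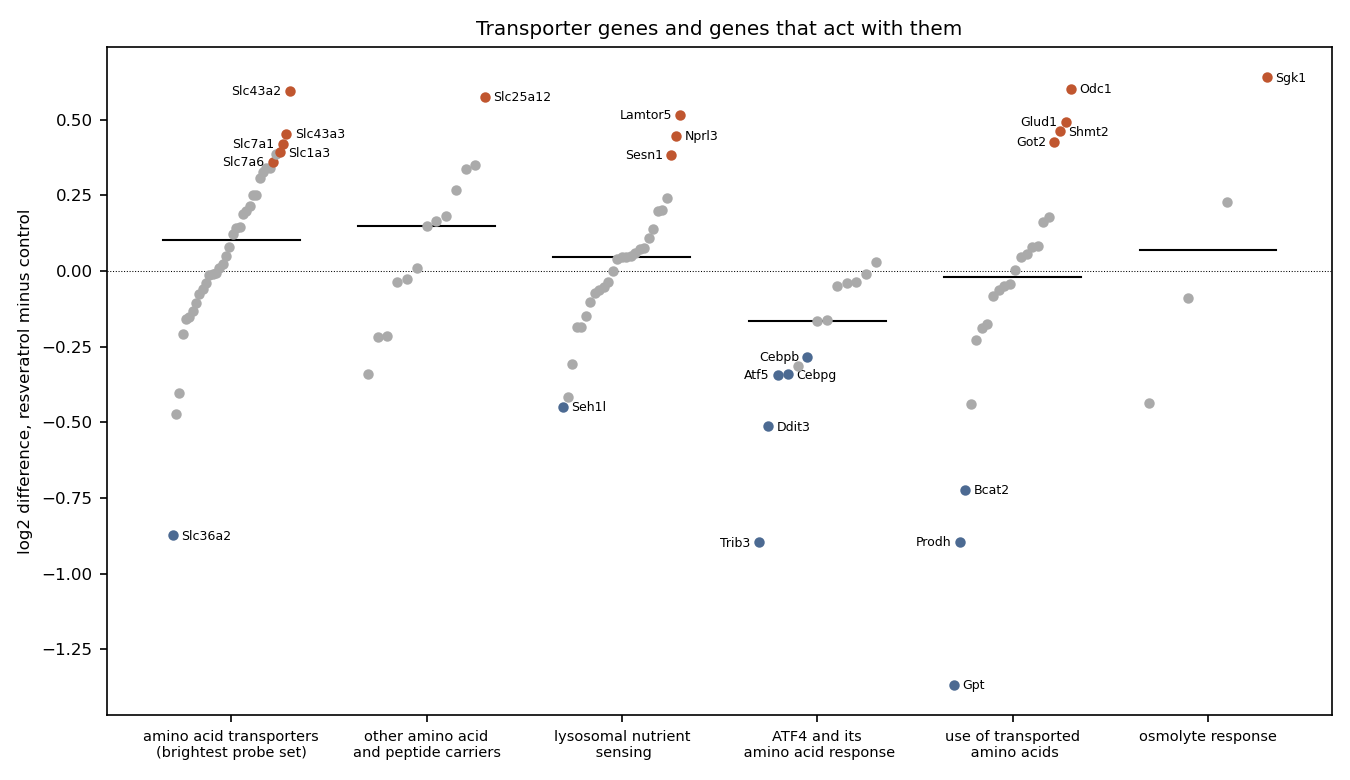
Log2 difference, resveratrol minus control, of each tested transporter gene and of the genes in 5 companion lists, each by its probe set of highest mean; orange points rose, blue points fell, grey points did not pass and the horizontal bars are medians. The ATF4 list has 5 genes below 0 that passed, and the list on the use of transported amino acids has 4 above 0 and 3 below.

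Enzymes that use the transported amino acids went both ways: of 22 tested, 4 rose and 3 fell, which is 31.8% called against 10.5% of all genes. This list too was chosen with earlier results of these data known, so the share describes the list only. Gpt, alanine aminotransferase, read 884.4, 779.6 and 812.3 in control and 343.7, 335.1 and 257.6 in treated cells, a log2 difference of -1.37 ± 0.11 (limma adjusted p = 2.81e-05). Bcat2, which starts the breakdown of branched-chain amino acids, fell from 1682 ± 145 to 1014 ± 110 (limma adjusted p = 0.00113). Odc1, which turns arginine-derived ornithine into polyamines, rose from 905 ± 51.6 to 1382 ± 71.7 (limma adjusted p = 0.000806). Got2, Glud1 and Shmt2, mitochondrial enzymes of aspartate, glutamate and serine, rose by 0.43, 0.49 and 0.46 (limma adjusted p = 0.0088, 0.0102 and 0.00649). With no intensity trend in the fit these 3 calls were lost (adjusted p = 0.064, 0.065 and 0.0547). The Glud1 call was lost without resveratrol replicate 1 (adjusted p = 0.0508). Prodh, proline dehydrogenase, had -0.90 (limma adjusted p = 0.0199) and lost its call without control replicate 2 or 3 or resveratrol replicate 1 or 3 (0.0509 to 0.084). The probe sets of Gpt, Odc1, Shmt2 and Sesn1 may bind related transcripts.

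The lysosomal sensing genes that feed mTORC1 gave 3 rises and 1 fall among 27 tested, with a median of 0.04. That is 14.8% called, near the 10.5% of all genes. Lamtor5 of the Ragulator complex rose from 769 ± 58.2 to 1111 ± 144 (limma adjusted p = 0.00996), a call lost without resveratrol replicate 2 (0.0521). Nprl3 of the GATOR1 complex, which restrains mTORC1, rose by 0.45 (limma adjusted p = 0.0157) and lost its call without resveratrol replicate 1 (0.0535) or 2 (0.0598). Sesn1, of the sestrin family that restrains mTORC1, had 0.38 (limma adjusted p = 0.0353) and kept the call only without control replicate 1, with 0.0549 to 0.141 otherwise. Seh1l of the GATOR2 complex fell by 0.45 (limma adjusted p = 0.00982), a call lost without control replicate 2 (0.0511).

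Markers of other cell types were measured as well. Of 6 macrophage markers, all on the array and none at 0, the summed intensity was 225 to 289 in control and 306 to 337 in treated cells. Cd14 was the one that passed, at 0.47 ± 0.12 (limma adjusted p = 0.0365), a call lost without control replicate 2 or 3 or resveratrol replicate 1 or 2 (adjusted p = 0.0716 to 0.142), while Ptprc and Itgam read at most 16.6. Of 5 neuron and glia markers, all on the array and none at 0, the summed intensity was 192 to 253 in control and 159 to 219 in treated cells. Snap25, a synaptic protein, was the one of 4 tested that passed. It read 94.4, 114.9 and 110.7 in control and 54.8, 61.4 and 62.1 in treated cells, at -0.70 ± 0.13 (limma adjusted p = 0.00638), and kept the call with each array left out. None of 3 tested skeletal muscle markers passed, with sums of 137 to 171 and 141 to 196. The labels name the 3T3-L1 line alone for all 6 arrays, and the source of these marker signals was not tested. Thy1, a fibroblast surface protein, rose by 0.40 (limma adjusted p = 0.0078), with the summed fibroblast markers at 11387 to 11659 in control and 10173 to 11807 in treated cells.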

How the data were processed

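Array intensities of 6 samples were used as deposited by the authors. The values are linear intensities scaled so that the 2% trimmed mean of each array is 150. Which program condensed probes into these values was not given in the sources used here. Of 45101 probe sets, 64 array controls were left out, 16 was added, log2 taken, and the 60% with the highest mean tested (27022, geometric mean intensity from 20.3) with limma 3.58.1 in R 4.3.3 (intensity trend, Benjamini-Hochberg, threshold 0.05). The fit was tested on simulated data. A fold is on the log2(intensity + 16) scale and understates changes of dim genes. Of the members, 51 probe sets, and 26 genes with all of theirs, were too dim to be tested. All 62 genes matched RefSeq by gene number. The text names every called member, the 10 tested uncalled probe sets of largest difference, the 10 brightest, a fixed set of members, and up to 4 genes of lowest p per list. Other list genes were named after their values were seen. The members and lists were chosen with earlier results of these data known. Lists use the tested probe set of highest mean per gene. Promoters are RefSeq's, GRCm38.p6, 250 bases before and 50 after a start. Alternatives changed the offset, filter, trend, normalization, weights, blocks, probe set choice and arrays. Protein sequences were not used here.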

Additional observations from a re-analysis of the deposited data

How the results depend on the processing

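The whole table gave 2209 calls, 1396 with no intensity filter, 861 with no intensity trend and 1131 to 1952 with one array left out. The 10 member calls became 4 with no trend (3 of them higher, and 3 genes by brightest probe set), 12 with the brightest 40% tested (2 of them lower) and 7 to 9 with one array left out, where 1 to 2 were lower. With no intensity filter they became 8, among them the dim Slc43a2 1456940_at, and 4 genes by brightest probe set. Of 631 values of 40 member probe sets compared, 584 kept direction and side of the threshold, 26 lost a call, 2 gained one and 19 changed sign. All 26 losses fell on the 10 called probe sets, of which 4 kept the call under every alternative. Slc1a3 1452031_at kept it under 7 of 16 alternatives, and Slc6a8 and Slc7a1 under 10 of 16 each. For the called probe sets, whose groups did not overlap, leaving out an array cannot change the sign. No called probe set changed sign under the other alternatives either. Those that did had not passed and lay between -0.15 and 0.08 in the fit as reported, and the size of some depended on single arrays. With one array left out Slc7a3 ranged from -0.0612 to 0.1054, Slc6a9 from -0.0621 to 0.0751 and Slc38a1 from -0.2016 to 0.0693. Slc6a6 (1421346_a_at) ranged from -0.0189 to 0.1621, Slc7a2 from -0.0168 to 0.2433 and Slc6a2 from -0.0639 to 0.0436. For Slc38a4 the range was -0.1573 to 0.0267, for Slc36a4 -0.0044 to 0.0749 and for Slc38a9 (1456338_at) -0.3667 to 0.0091. Array weights gave Slc7a3 -0.0186, and the spike block gave Slc6a9 0.0073 and Slc36a4 -0.009. The further Slc1a3 probe set 1440491_at, at -0.0389, had the opposite sign to the called ones. The causes were not tested. Same-numbered arrays did not deviate together (correlations -0.061, -0.016 and 0.093), so the numbers were not taken to pair the arrays. With the replicate number as a block the whole table gave 1894 calls, the members 9 and the genes 5. Of 22 called genes in the companion and marker lists, 15 lost the call with no intensity trend. Slc25a12, Trib3, Gpt, Bcat2, Odc1, Sgk1 and Snap25 kept it. Cebpb and Atf5 were also lost with the replicate block (adjusted p = 0.067 and 0.0554). The dim signals of untested members limit what can be said of them.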

Other observations

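Slc25a12, the mitochondrial aspartate and glutamate carrier, was the one called gene among 13 tested carriers outside these families. It read 290.8, 280.1 and 267.6 in control and 427.8, 418.9 and 425.1 in treated cells. The groups lay far apart, at 0.57 ± 0.08 on the log2 scale (limma adjusted p = 0.00101), and the call held with each array left out. That is 7.69% of the list against 10.5% of all genes, and 2 further Slc25a12 probe sets, at 0.59 and 0.11, did not pass (limma adjusted p = 0.124 and 0.786). Of 4 osmolyte response genes tested, Sgk1, a kinase that regulates several transporters, rose from 493 ± 24.7 to 778 ± 60.2 (SD, n = 3; limma adjusted p = 0.000791). That is 25.0% of the list against 10.5% of all genes, from very few genes. Hspa4l went the other way, at -0.44 without overlap between the groups, and just missed the threshold (limma adjusted p = 0.0517). Slc5a3, the inositol carrier, had 0.23 and Nfat5 had -0.09 (limma adjusted p = 0.175 and 0.777).

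Of the 51 member probe sets too dim to be tested, 7 had groups that did not overlap, all at or below 14.8. The share among all untested probe sets was not computed, so this count is no result about the members. At such dim signals the values below are a description only. The Slc43a2 probe set 1456940_at read 1.3, 2.1 and 0.8 in control and 11.4, 13.2 and 6.7 in treated cells, and passed when no filter was applied (limma adjusted p = 0.0411). Slc6a13 read 12.9, 5.0 and 8.5 in control and 2.8, 3.3 and 1.4 in treated cells.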
